A study of Mus musculus with 4 samples.

Results

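The genes described here are the nuclear-encoded subunits of the mitochondrial respiratory chain and the ATP synthase, measured by RNA-seq in primary mouse astrocytes. They were taken by name from the table of genes: protein-coding genes whose symbols start with Ndufa, Ndufb, Ndufc, Ndufs, Ndufv, Uqcr, Cox4 to Cox8 or Atp5, together with Sdha, Sdhb, Sdhc and Sdhd. The rule found 93 of the 25393 genes. They comprised 36 subunits of complex I, 8 assembly factors of complex I (Ndufaf1 to Ndufaf8), 4 subunits of complex II, 8 of complex III, 20 of complex IV, 16 of complex V, and Atp5s, an accessory protein of complex V. Ndufa4 and Ndufa4l2, named after complex I, were placed with complex IV, where the Ndufa4 protein is now known to sit.

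Astrocytes came from the cortex and hippocampus of untreated C57BL/6 pups at postnatal day 1, either wild type (WT) or Tet1-/- (KO, a constitutive knockout), with 2 libraries of each genotype and 2 pups per isolation. The cells grew for about 7 days in a PDL-coated flask, were shaken at 260 rpm and were collected 24 h later, according to the sample labels. TET1 is an enzyme that oxidises 5-methylcytosine in DNA to 5-hydroxymethylcytosine, and the comparison addresses which mRNAs differ when it is missing. The 4 libraries held 18749610 to 22673555 reads on genes, and 3 reads, taken as the detection floor, were worth 2.70 to 3.21 normalized counts, which are the deposited values: reads on a gene divided by a size factor of the library. Tet1 itself stood at 266 and 121 normalized counts in WT 1 and WT 2 against 173 and 463 in KO 1 and KO 2 (log2 fold change 0.66, SE 0.65, limma adjusted p = 0.691), so its level did not separate the genotypes and the KO libraries are named by their label throughout, as KO 1 and KO 2 (values are given in that order). Xist, the RNA that coats an inactive X chromosome, stood at 8.54 and 0.920 normalized counts in WT 1 and WT 2 against 2896 and 13367 in KO 1 and KO 2, so the sex of the pups and the genotype cannot be told apart.

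The astrocyte label was checked against 8 astrocyte markers, all of which were measured. Aldh1l1 stood at 4725 and 5999 normalized counts in WT 1 and WT 2 against 4452 and 2490 in KO 1 and KO 2. Gfap ranged from 9945 in KO 2 to 174853 in KO 1. The summed astrocyte marker level was 1472 and 1410 FPKM in WT against 2538 and 349 FPKM in KO 1 and KO 2, where FPKM is fragments scaled to gene length and to the reads on genes of a library. Gfap made up most of that sum in KO 1, with 1871 FPKM. It stood at 687 and 765 FPKM in WT 1 and WT 2 and at 117 FPKM in KO 2, where the other markers made up most of the sum. Of the 8 markers 7 had a log2 fold change below 0, with a median of -0.78, and 5 of them (Slc1a2, Sox9, Slc1a3, Aqp4 and Aldh1l1) were lower in both libraries labelled KO without overlap. Slc1a2 (-2.58) and Sox9 (-1.15) had an unadjusted p under 0.05 in limma. For this and the marker counts below, 4.54% of all genes tested were higher and 9.18% lower at that level. Without overlap, 22.5% of all genes tested were higher and 25.4% lower. Of 10 markers of dividing cells, 10 were higher in the libraries labelled KO and 9 had an unadjusted p under 0.05 in limma, with summed levels of 2.43 and 15.7 FPKM in WT against 42.0 and 66.4 FPKM in KO 1 and KO 2. All 12 microglia and macrophage markers were lower there, 10 of them with an unadjusted p under 0.05, with sums of 70.2 and 112 FPKM in WT against 25.3 and 12.6 FPKM in KO 1 and KO 2. The 6 neuronal markers summed to 8.86 and 17.8 FPKM in WT against 22.6 and 21.4 FPKM in KO 1 and KO 2. That sum was mostly Stmn2, whose groups overlapped. Of the neuronal markers, 5 of 5 tested were above 0, and 2 of them had an unadjusted p under 0.05 in limma. Snap25 was at 0 in both WT libraries and at 1.07 and 2.70 normalized counts in KO 1 and KO 2. Those values are at or under the detection floor. Markers of the oligodendrocyte lineage summed to 153 and 228 FPKM in WT against 370.1 and 231 FPKM in KO 1 and KO 2, which was mostly Olig1 and Olig2. Of these 8 markers 5 were below 0, with a median of -0.40, among them Cspg4 (-2.35, with an unadjusted p under 0.05 in limma), Mbp (-1.36) and Pdgfra (-1.32). Markers of meningeal, mural and endothelial cells summed to 21.6 and 28.7 FPKM in WT against 26.4 and 17.2 FPKM in KO 1 and KO 2, with 3 of 8 above 0. At an unadjusted p under 0.05 in limma, 1 of the 8 was higher, Col1a2 (1.42), and 2 were lower, Dcn (-2.12) and Rgs5 (-1.52). At an adjusted p under 0.05, DESeq2 called 9 of the 12 microglia and macrophage markers lower and 6 of the 10 markers of dividing cells higher. It also called Cspg4 lower and Tubb3 higher, but no astrocyte marker and no meningeal, mural or endothelial marker. Of the 17024 genes given an adjusted p, it called 4.80% lower and 1.69% higher. The part of these cell types in the results below was not tested, and in bulk RNA fewer cells of a type and less RNA per cell cannot be told apart.

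Respiratory complexes I, III and IV pass electrons from NADH to oxygen and pump protons across the inner mitochondrial membrane, and complex II, also an enzyme of the citric acid cycle, feeds in electrons from succinate without pumping. Complex V, the ATP synthase, lets the protons flow back and makes ATP. Most subunits are encoded in the nucleus and must match a small set encoded in mitochondrial DNA. Several complex IV subunits exist in a common form and in a form with restricted expression, such as heart and muscle, lung or testis. Cultured astrocytes are known for high glycolysis, but they also hold active mitochondria.

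The subunit mRNAs were among the well expressed genes of these cells. Of the 93 genes, 78 had a mean of at least 10 FPKM and 88 at least 1 FPKM, and the median of their mean levels was 43.5 FPKM, beside 1.13 FPKM over all genes listed. Together they took 0.726% and 0.898% of the reads in WT against 1.16% and 0.918% in KO 1 and KO 2. Cox6a1 was the highest, with a mean of 429 FPKM, and 3 genes (Cox7b2, Cox8b and Cox8c) stayed at or under 3 reads in every library. These 3 were below the minimum mean of 1 normalized count, which left 90 members among the 22094 genes tested.

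Across genotypes, the median log2 fold change (KO minus WT) of the 90 members was 0.40, beside -0.07 for all 22094 genes tested and 0.12 for the 7393 other protein-coding genes with a mean of at least 500 normalized counts. The fold change was above 0 for 80 of the 90 members, or 88.9%, where 46.3% of all genes tested and 59.5% of those 7393 well expressed genes lay above 0. Most single members differed little relative to the spread between libraries. In limma, 4 members were higher in the libraries labelled KO at an unadjusted p under 0.05 (Uqcrq, Atp5g1, Ndufb6 and Uqcr10), or 4 of 90 where 4.54% of all genes tested were, and 2 were lower (Cox4i2 and Cox6b2), where 9.18% of all genes tested were. These shares were near or under the background. After Benjamini-Hochberg adjustment, limma called 0 members, as it called 0% of all genes tested, and the lowest adjusted p of a member was 0.150. The edgeR quasi-likelihood test on the recovered reads likewise called 0 members and 0% of all genes after adjustment, with 5 members at an unadjusted p under 0.05 beside 12.4% of all genes. DESeq2 called Cox4i2 and Cox6b2, both lower in the libraries labelled KO (adjusted p = 0.00208 and 0.00198), and it called no member higher. Of the 17024 genes to which DESeq2 gave an adjusted p, it called 4.80% lower and 1.69% higher. The values of the libraries did not overlap between genotypes for 40 members that were higher in the libraries labelled KO, beside 22.5% of all genes, and for 4 that were lower, beside 25.4% of all genes. Among the 7393 well expressed genes, 2405 were higher and 1180 lower without overlap.

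**Figure D1:**
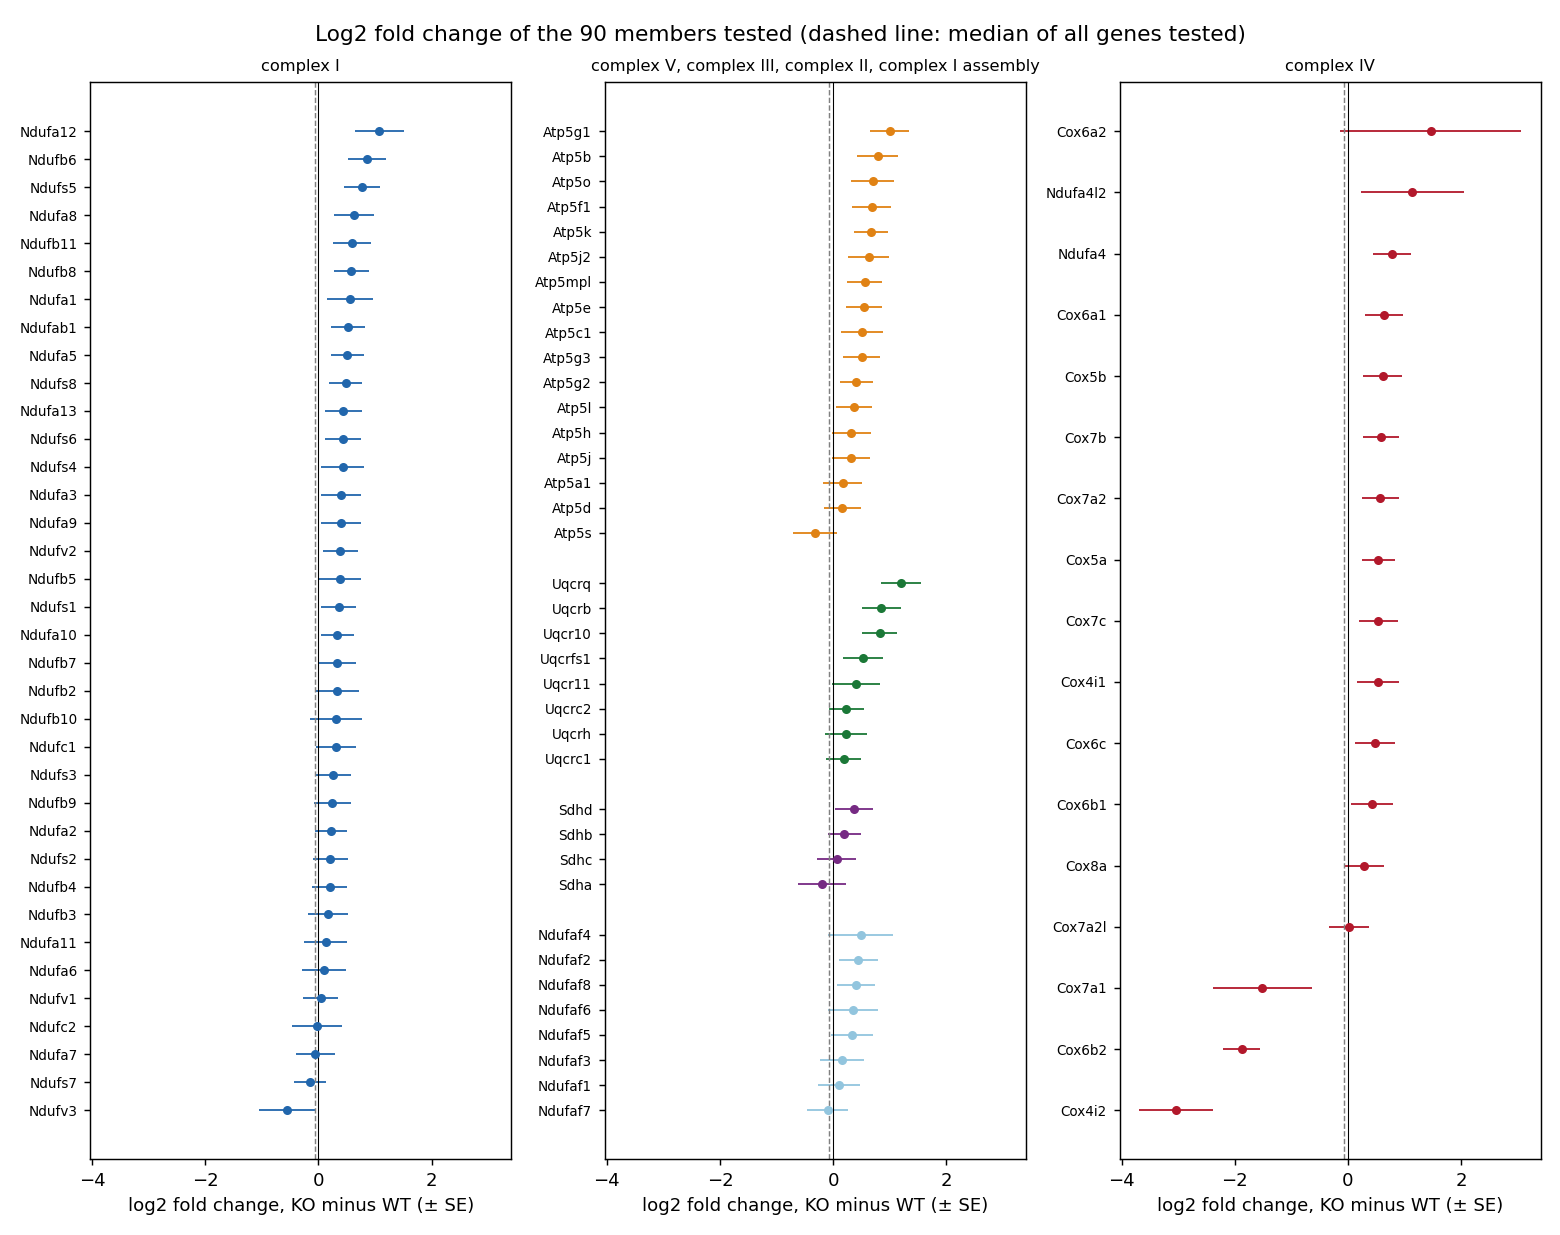
Log2 fold change (KO minus WT, x axis) of each of the 90 members tested, with its SE from limma, grouped by complex and ordered by size within a complex. The dashed line marks the median of all genes tested, -0.07, and most points lie to its right, while Cox4i2, Cox6b2 and Cox7a1 lie far to its left.

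The 2 libraries of each label differed from each other about as much as the genotypes did. Among the 76 subunits other than isoforms of restricted expression, WT 1 had the lowest value for 64 and KO 1 the highest for 68. KO 1 exceeded WT 1 for 76 of 76 subunits, with a median log2 difference of 0.82, and exceeded WT 2 for 73, with a median of 0.45. KO 2 exceeded WT 1 for 65 subunits, with a median of 0.38. KO 2 exceeded WT 2 for 37 of 76, with a median of -0.01. Within a label, the median difference was 0.37 for WT 2 minus WT 1 and -0.46 for KO 2 minus KO 1. Without KO 1 the median of the 90 members was 0.15 and 61 were above 0, and without WT 1 it was 0.22, while without WT 2 and without KO 2 it was 0.58 in both cases.

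**Figure D2:**
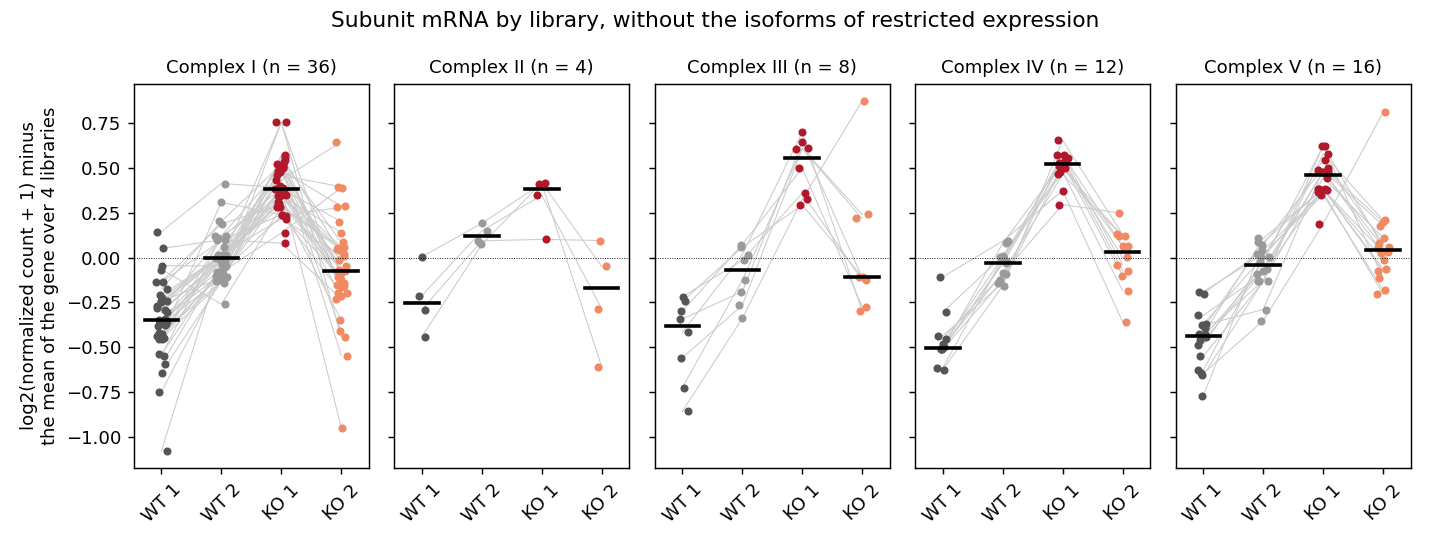
Level of each subunit in the 4 libraries, as log2(normalized count + 1) minus the mean of that gene over the libraries (y axis), in 1 panel per complex. Each grey line joins 1 gene, the isoforms of restricted expression are left out, and the black bars are medians. By the medians, WT 1 lies lowest and KO 1 highest in every panel, with WT 2 and KO 2 between them. In complex II, the points of KO 2 are the lowest for Sdha and Sdhc.

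Gene length moved with this order of the libraries. Among other protein-coding genes with a mean of at least 500 normalized counts, the 655 shorter than 2000 bases had a median log2 difference of 0.53 for KO 1 minus WT 1 and 0.06 for KO 2 minus WT 2. The 6738 longer ones had medians of 0.18 and 0.09. Of the 76 subunits, 47 were shorter than 2000 bases, with medians of 0.90 and 0.02 for the same differences, and 29 were longer, with medians of 0.71 and -0.08. The part of gene length in the subunit values was not tested.

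Complex I, which takes electrons from NADH, was represented by 7 core subunits that carry its cofactors and by 29 accessory subunits that surround them. The median log2 fold change was 0.26 for the core subunits and 0.38 for the accessory ones. Of the 36, 32 were above 0, 15 were higher in the libraries labelled KO without overlap, and 0 were lower without overlap, where 46.3% of all genes tested were above 0, 22.5% were higher without overlap and 25.4% lower. The 3 with the highest mean FPKM were Ndufa2, Ndufa1 and Ndufb11, all accessory subunits. Ndufa2 stood at 125 and 143 FPKM in WT 1 and WT 2 against 155 and 147 FPKM in KO 1 and KO 2, with a log2 fold change of 0.23 (SE 0.29, limma adjusted p = 0.760). Its levels thus lay close together in all 4 libraries. The X-linked genes Ndufa1 and Ndufb11 had log2 fold changes of 0.56 (SE 0.41) and 0.59 (SE 0.33), with limma adjusted p of 0.592 and 0.483. In both, KO 1 stood above the other libraries, and in Ndufa1 KO 2 lay within the range of WT. Ndufb1-ps, which stands for a complex I subunit but is not annotated as protein-coding, lay outside the rule and stood at 532 and 657 normalized counts in WT 1 and WT 2 against 991 and 649 in KO 1 and KO 2.

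The complex I subunits with the largest differences were Ndufa12 and Ndufb6 on the higher side and Ndufv3 on the lower. Ndufa12, an accessory subunit that joins late in assembly, stood at 421 and 890.1 normalized counts in WT 1 and WT 2 against 1201 and 1394 in KO 1 and KO 2. The groups did not overlap, but WT 1 lay far below WT 2, and the log2 fold change was 1.08 (SE 0.43, unadjusted p = 0.0524, adjusted p = 0.369 in limma). Ndufb6, an accessory subunit of the membrane arm, stood at 629.5 and 984 normalized counts in WT 1 and WT 2 against 1454 and 1392 in KO 1 and KO 2. These groups did not overlap either, and the log2 fold change was 0.85 (SE 0.34, unadjusted p = 0.0493, adjusted p = 0.363 in limma). Of its exonic bases, 39.0% are shared with Smim27 on the opposite strand, and whether the libraries kept strand is not stated. Ndufv3, an accessory subunit bound to the NADH-oxidising module, stood at 1386 and 1669 normalized counts in WT 1 and WT 2 against 1643 and 649 in KO 1 and KO 2. KO 1 lay within the WT range and KO 2 below it, and the log2 fold change was -0.56 (SE 0.50, limma adjusted p = 0.648).

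The 8 assembly factors of complex I, which help to build it but are not part of it, reached a median log2 fold change of 0.34, and 7 of 8 were above 0. Their levels were low beside those of the subunits, with means between 4.15 and 24.5 FPKM. Reads on Ndufaf2 are the least certain, since 65.6% of its exonic bases are shared with another gene.

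Complex II, succinate dehydrogenase, had the smallest median among the complexes, 0.13, with 3 of 4 subunits above 0. The catalytic subunit Sdha, which holds the flavin, stood at 9283 and 10564 normalized counts in WT 1 and WT 2 against 12321 and 6069 in KO 1 and KO 2. The libraries labelled KO thus lay on either side of WT, and the log2 fold change was -0.20 (SE 0.43, 95% interval -1.27 to 0.87, limma adjusted p = 0.867). The iron-sulphur subunit Sdhb stood at 1612 and 2103 normalized counts in WT 1 and WT 2 against 2115 and 2105 in KO 1 and KO 2, with WT 2 almost level with both of the latter (log2 fold change 0.20, SE 0.29, limma adjusted p = 0.800). The membrane anchors Sdhc and Sdhd had log2 fold changes of 0.06 (SE 0.35) and 0.37 (SE 0.34), and their groups overlapped, with limma adjusted p of 0.952 and 0.665.

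Complex III, which passes electrons from ubiquinol to cytochrome c, had 8 of 8 subunits above 0 and a median log2 fold change of 0.47. Its values depended on single libraries more than those of the other complexes: without KO 1 the median was 0.07 and without KO 2 it was 0.90. Uqcrq, a small subunit near the ubiquinone-binding protein, stood at 1422 and 2037 normalized counts in WT 1 and WT 2 against 3228 and 4720.2 in KO 1 and KO 2. Both libraries labelled KO exceeded both WT libraries, with means of 1729.5 ± 435 and 3974 ± 1055 (SD, n = 2 each) and a log2 fold change of 1.20 (SE 0.35, 95% interval 0.31 to 2.08, unadjusted p = 0.0170, adjusted p = 0.275 in limma). Uqcr10, a subunit of the membrane part, stood at 943 and 1155 normalized counts in WT 1 and WT 2 against 2116 and 1616 in KO 1 and KO 2, again without overlap (log2 fold change 0.82, SE 0.31, unadjusted p = 0.0405, adjusted p = 0.351 in limma). Uqcr10 and Uqcr11 were among the 3 complex III genes with the highest mean FPKM, with Uqcrfs1, the Rieske iron-sulphur protein. Uqcr11 stood at 1215 and 1641 normalized counts in WT 1 and WT 2 against 2636 and 1319.5 in KO 1 and KO 2, so that only KO 1 was above WT (log2 fold change 0.40, SE 0.43, limma adjusted p = 0.711). Uqcrfs1 stood at 1667 and 1854 in WT 1 and WT 2 against 3301 and 1958 in KO 1 and KO 2, with KO 2 just above WT 2 (log2 fold change 0.53, SE 0.35, limma adjusted p = 0.557).

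**Figure D3:**
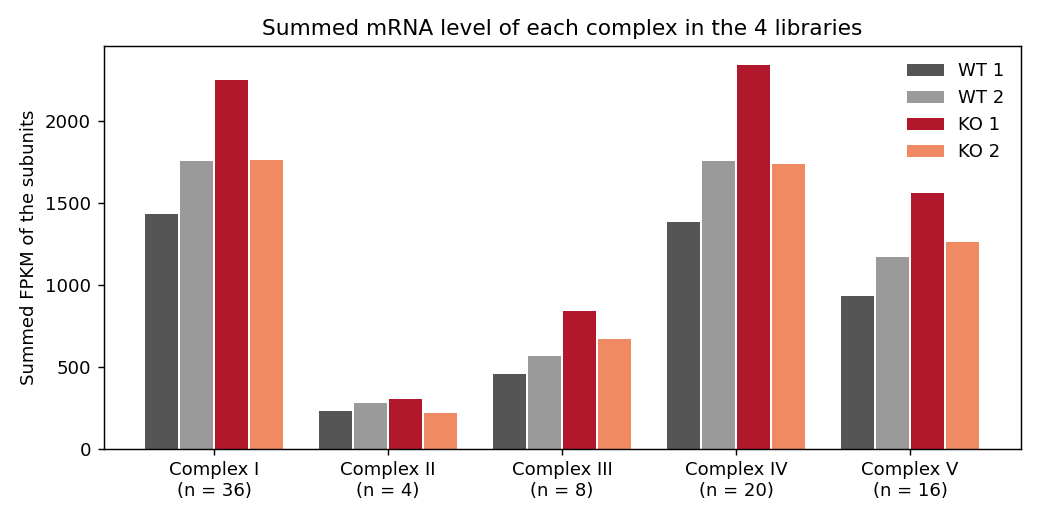
Summed FPKM of the subunits of each complex (y axis) in the 4 libraries, with 1 bar per library and all members of a complex counted, including those below the minimum for testing. The bar of KO 1 is the tallest in each complex, and for complex II the bar of KO 2, 216 FPKM, is the shortest.

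Complex V, the ATP synthase, had 16 of 16 subunits above 0, a median log2 fold change of 0.52, and 10 subunits higher in the libraries labelled KO without overlap, beside 22.5% of all genes tested. The catalytic β subunit Atp5b stood at 12616 and 18172 normalized counts in WT 1 and WT 2 against 29708 and 22986 in KO 1 and KO 2. All values of the latter were above WT, with a log2 fold change of 0.79 (SE 0.37, limma adjusted p = 0.424). The α subunit Atp5a1, its partner in the same ring, stood at 12066 and 13958 normalized counts in WT 1 and WT 2 against 17559 and 12155 in KO 1 and KO 2, so KO 2 lay within WT (log2 fold change 0.17, SE 0.34, limma adjusted p = 0.853). Atp5h, a subunit of the peripheral stalk, had a log2 fold change of 0.32 (SE 0.34, limma adjusted p = 0.711), with KO 2 within WT.

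The membrane ring of complex V is built of subunit c, whose mature protein is the same from 3 genes, Atp5g1, Atp5g2 and Atp5g3. Atp5g1 stood at 819 and 1005 normalized counts in WT 1 and WT 2 against 1462 and 2249 in KO 1 and KO 2, without overlap (log2 fold change 1.00, SE 0.34, unadjusted p = 0.0303, adjusted p = 0.321 in limma). It supplied the least of the subunit c mRNA: its share of the summed FPKM of the 3 genes was 6.48% and 6.40% in WT against 6.53% and 12.5% in KO 1 and KO 2. The share was thus nearly equal in 3 libraries and higher only in KO 2. Atp5g3 held 49.5% and 52.0% in WT against 53.0% and 48.1% in KO 1 and KO 2, with Atp5g2 supplying the rest. Atp5s, an accessory protein related to coupling factor B rather than a subunit of the enzyme, had a log2 fold change of -0.32 (SE 0.38, limma adjusted p = 0.747).

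Complex IV, cytochrome c oxidase, had a median log2 fold change of 0.54 over its 17 members tested, and the 5 restricted isoforms among them had both signs, with 3 below 0 and 2 above. All 12 members other than the isoforms of restricted expression were above 0, with a median log2 fold change of 0.54, and none of them had an unadjusted p under 0.05 in limma, the lowest adjusted p being 0.397 for Ndufa4. Cox6a1, Cox8a and Cox4i1, the 3 with the highest mean FPKM, had log2 fold changes of 0.64 (SE 0.34), 0.29 (SE 0.35) and 0.53 (SE 0.36). Cox6a1 stood at 304 and 381 FPKM in WT 1 and WT 2 against 582 and 449 FPKM in KO 1 and KO 2, without overlap. Cox8a and Cox4i1 overlapped between genotypes, with fewer normalized counts in KO 2 than in WT 2 in both. Cox7b, on the X chromosome, had a log2 fold change of 0.58 (SE 0.31, limma adjusted p = 0.471).

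Of the 8 isoforms of restricted expression, 5 passed the filter. Of these 5, 3 were lower in the libraries labelled KO without overlap (Cox4i2, Cox6b2 and Cox7a1), beside 25.4% of all genes tested. Cox4i2, the form of subunit 4 known from lung and from low oxygen (chr2:152754173-152765037, GRCm38), stood at 57.6 and 121 normalized counts in WT 1 and WT 2 against 9.63 and 9.01 in KO 1 and KO 2. Both WT libraries lay far above both others, and the WT mean was 9.60-fold higher, with a log2 fold change of -3.04 (SE 0.66, 95% interval -4.70 to -1.38, unadjusted p = 0.00481, adjusted p = 0.195 in limma and 0.00208 in DESeq2). Without WT 2, whose value was the highest, the log2 fold change was -2.51, and on log2(FPKM + 1) it was -2.00. Cox6b2, the form of subunit 6b known from testis (chr7:4751792-4753094, GRCm38), stood at 1376 and 1682 normalized counts in WT 1 and WT 2 against 482 and 356 in KO 1 and KO 2. The groups were again far apart, with means of 1529 ± 216 and 419 ± 88.9 (SD, n = 2 each), a 3.65-fold higher mean in WT, and a log2 fold change of -1.87 (SE 0.32, 95% interval -2.69 to -1.06, unadjusted p = 0.00166, adjusted p = 0.150 in limma and 0.00198 in DESeq2). Cox7a1, the form of subunit 7a known from heart and skeletal muscle (chr7:30184144-30186078, GRCm38), stood at 134 and 168 normalized counts in WT 1 and WT 2 against 124 and 21.6 in KO 1 and KO 2. KO 1 lay just below WT and only KO 2 far below it, so the log2 fold change of -1.51 had a wide error (SE 0.88, 95% interval -3.71 to 0.69, limma adjusted p = 0.500) and was -0.27 without KO 2. None of these 3 genes shares exonic bases with another annotated gene.

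The other 5 restricted isoforms were at or near the detection floor, except for Cox6a2 in KO 2. Cox6a2, the heart and muscle form of subunit 6a, stood at 0 and 1.84 normalized counts in WT 1 and WT 2 against 0 and 20.7 in KO 1 and KO 2, so it passed the filter through KO 2 alone (log2 fold change 1.47, SE 1.60). Ndufa4l2, a relative of Ndufa4 known to be induced by low oxygen, reached at most 4.28 normalized counts, in KO 1 (log2 fold change 1.14, SE 0.91, limma adjusted p = 0.619). Cox7b2, Cox8b and Cox8c, known from testis, heart and muscle, and testis, reached at most 2.13, 1.07 and 1.80 normalized counts.

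The share of a restricted isoform in the summed FPKM of itself and its common partner was compared for 5 pairs. It was smaller in both libraries labelled KO for Cox6b2, Cox4i2 and Cox7a1, the isoforms already seen to be lower there. Cox6b2 made up 32.3% and 27.9% of the summed Cox6b1 and Cox6b2 level in WT against 7.51% and 8.50% in KO 1 and KO 2. The testis form thus held about the same share in both libraries of a label, with a difference of -22.1 percentage points. Cox4i2 made up 2.40% and 3.58% of the Cox4i1 and Cox4i2 level in WT against 0.194% and 0.278% in KO 1 and KO 2. Cox7a1 made up 24.5% and 24.9% of the Cox7a1 and Cox7a2 level in WT against 13.4% and 3.56% in KO 1 and KO 2, where the libraries differed widely. With 2 libraries against 2, the exact two-sided permutation test gave p = 0.333 for each of these 3 shares, which is the smallest it can give, so no share of this design can pass 0.05. The other pairs did not go that way: the mean share of Cox6a2 beside Cox6a1 was 0.151 percentage points higher in the libraries labelled KO (exact permutation p = 1), and that of Ndufa4l2 beside Ndufa4 was 0.0455 points higher (exact permutation p = 0.667). The common partners themselves had log2 fold changes of 0.53 (Cox4i1, SE 0.36), 0.43 (Cox6b1, SE 0.37) and 0.58 (Cox7a2, SE 0.32).

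**Figure D4:**
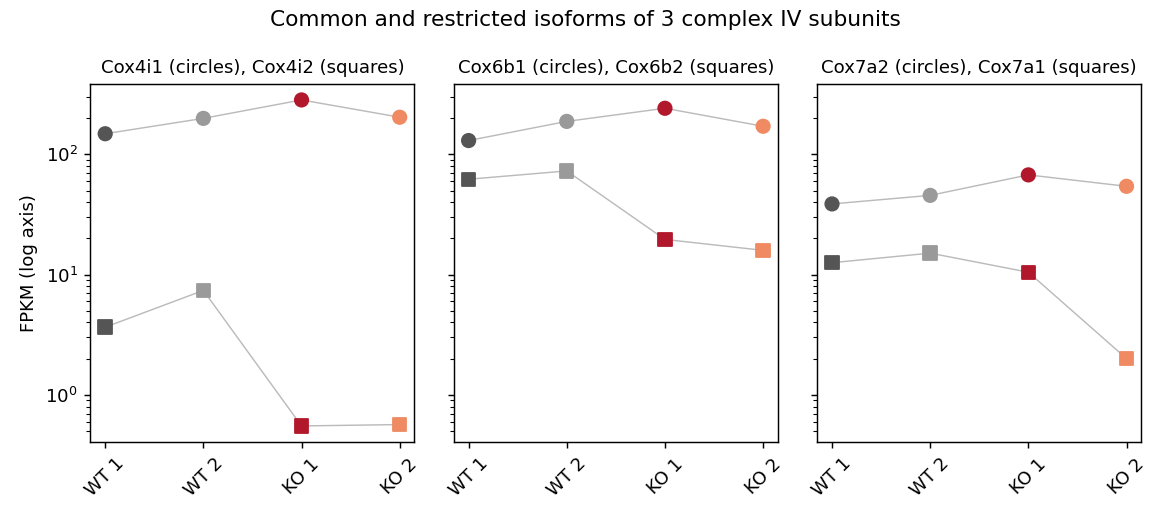
FPKM (log axis) of the common isoform (circles) and the restricted isoform (squares) of 3 complex IV subunits in the 4 libraries. The circles differ less between libraries than the squares do. The squares of Cox4i2 and Cox6b2 drop from WT to both libraries labelled KO, from 3.65 and 7.39 FPKM to 0.552 and 0.566 FPKM for Cox4i2, while the square of Cox7a1 drops mainly in KO 2.

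Promoter sequences from RefSeq (GRCm38.p6, 250 bases before to 50 after the annotated start) were found for 74 of the 93 genes. The promoters of 2 pairs of isoforms are shown because the restricted and the common form had log2 fold changes of opposite sign. Cox4i2 and Cox4i1 also had opposite signs, but no promoter was found for either. TET1 acts on CpG sites, so CpG counts are given below. Each sequence runs 5′ to 3′ on the strand of its gene, and capitals mark GGGCGG (the Sp1 box), CCAAT (the NF-Y box) and CCGGAAG (the core bound by GABPA), on either strand.
Cox6b2 (chr7:4753045-4753344, minus strand): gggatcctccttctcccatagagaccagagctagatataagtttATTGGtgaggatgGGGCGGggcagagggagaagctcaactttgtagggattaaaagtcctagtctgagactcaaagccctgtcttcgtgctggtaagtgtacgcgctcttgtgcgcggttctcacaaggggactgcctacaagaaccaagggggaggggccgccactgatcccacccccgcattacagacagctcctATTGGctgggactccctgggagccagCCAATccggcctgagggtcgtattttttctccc
Cox6b1 (chr7:30626065-30626364, minus strand): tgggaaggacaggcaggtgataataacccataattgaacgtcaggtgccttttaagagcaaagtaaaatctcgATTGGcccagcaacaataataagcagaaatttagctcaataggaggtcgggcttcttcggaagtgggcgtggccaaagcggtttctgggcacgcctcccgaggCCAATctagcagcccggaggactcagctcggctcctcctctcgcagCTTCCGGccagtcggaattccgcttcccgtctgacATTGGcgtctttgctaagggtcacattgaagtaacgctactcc
Cox7a1 (chr7:30183921-30184220, plus strand): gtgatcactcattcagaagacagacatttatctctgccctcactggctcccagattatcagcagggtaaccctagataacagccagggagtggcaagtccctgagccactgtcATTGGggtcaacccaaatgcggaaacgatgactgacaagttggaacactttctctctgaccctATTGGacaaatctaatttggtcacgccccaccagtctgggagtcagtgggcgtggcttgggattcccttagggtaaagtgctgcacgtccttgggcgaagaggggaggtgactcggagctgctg
Cox7a2 (chr9:79759804-79760103, minus strand): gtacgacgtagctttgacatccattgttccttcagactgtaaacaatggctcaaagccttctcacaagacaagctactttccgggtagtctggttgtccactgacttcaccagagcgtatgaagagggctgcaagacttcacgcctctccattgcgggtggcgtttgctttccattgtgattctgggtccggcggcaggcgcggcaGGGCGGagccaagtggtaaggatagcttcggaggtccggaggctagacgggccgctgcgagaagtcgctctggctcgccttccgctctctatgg
In each pair shown, the restricted isoform held fewer CpG dinucleotides in its window. The part of CpG content in the levels of these genes was not tested. Cox6b2 had 10 and Cox6b1 had 17, with observed over expected CpG ratios of 0.432 and 0.807. Cox7a1 had 7 and Cox7a2 had 20, with ratios of 0.333 and 0.833. The median ratio was 0.828 over the 74 promoters of members and 0.714 over the 12738 promoters of protein-coding genes in the table.

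Motifs of 5 factors known from promoters of the respiratory chain were counted in these windows on both strands, none of which contains another. The NRF1 motif (GCGC, any base, then TGCGC) was in 25.7% of the 74 promoters and in 9.49% of the 12738. The GABPA core CCGGAAG was in 24.3% and 16.7%, and the YY1 motif AAGATGGCG in 10.8% and 2.86%. The Sp1 box GGGCGG was in 44.6% and 62.8%, and the NF-Y box CCAAT in 44.6% and 42.2%. Among the genes described above, the NRF1 motif was in the promoters of Sdha, Sdhd, Cox6a1, Atp5h, Atp5g2 and Atp5g3, and the GABPA core in those of Sdhb, Sdhd, Ndufb6, Uqcr11, Cox6a1, Cox6b1, Cox8a and Atp5h. These are matches of letters, not measured binding.

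Genes that work with the subunits were taken from lists of the pathway. The 13 subunits encoded in mitochondrial DNA reached a median log2 fold change of 0.67, and 13 of 13 were above 0, beside 46.3% of all genes tested. At an unadjusted p under 0.05 in limma, 2 were higher, mt-Cytb and mt-Co3, beside 4.54% of all genes tested. Their summed level was lowest in WT 2, with 8772 FPKM beside 14778 FPKM in WT 1, 15076 FPKM in KO 1 and 16666 FPKM in KO 2, although mt-Co3 and mt-Nd3 were lowest in WT 1. mt-Cytb, the cytochrome b of complex III, stood at 45615 and 32511 normalized counts in WT 1 and WT 2 against 80307 and 77432 in KO 1 and KO 2 (log2 fold change 1.03, SE 0.39, limma adjusted p = 0.356). mt-Atp8, a small subunit of complex V, had a log2 fold change of 1.07 (SE 0.76, limma adjusted p = 0.580).

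Cytochrome c, the carrier between complexes III and IV, is encoded by Cycs, which stood at 606 and 974 normalized counts in WT 1 and WT 2 against 1491 and 2799.5 in KO 1 and KO 2. The groups did not overlap, and the log2 fold change was 1.41 (SE 0.44, unadjusted p = 0.0213, adjusted p = 0.292 in limma). Cyc1, cytochrome c1 of complex III, had a log2 fold change of 0.51 (SE 0.29, limma adjusted p = 0.487). The 38 assembly factors outside the rule reached a median log2 fold change of 0.12. At an unadjusted p under 0.05 in limma, 2 were higher and 1 lower, beside 4.54% and 9.18% of all genes tested. Cox17, the copper chaperone of complex IV, stood at 176 and 129.7 normalized counts in WT 1 and WT 2 against 55.7 and 71.2 in KO 1 and KO 2, and was the lower one (log2 fold change -1.25, SE 0.46, limma adjusted p = 0.348). Cox16, an assembly factor of the same complex, stood at 76.8 and 98.4 in WT 1 and WT 2 against 226 and 169 in KO 1 and KO 2 (log2 fold change 1.16, SE 0.43, limma adjusted p = 0.350).

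The 12 regulators of mitochondrial genes reached a median log2 fold change of 0.08, with 0 at an unadjusted p under 0.05 in limma or edgeR. Of all genes tested, 4.54% were higher and 9.18% lower at that level in limma, and 12.4% reached it in edgeR. Ppargc1a, which encodes the coactivator PGC-1α, stood at 799 and 648 normalized counts in WT 1 and WT 2 against 479.5 and 628 in KO 1 and KO 2 (log2 fold change -0.39, SE 0.33, limma adjusted p = 0.630). Pprc1, a coactivator of the same family, had a log2 fold change of 0.85 (SE 0.51, limma adjusted p = 0.515), with KO 2 alone far above the rest at 1126 normalized counts. The 16 genes of the citric acid cycle and pyruvate dehydrogenase had a median of 0.23, with 13 above 0, beside 46.3% of all genes tested. At an unadjusted p under 0.05 in limma, 2 were higher, beside 4.54% of all genes tested. Those 2 were Dlat, a subunit of pyruvate dehydrogenase, with a log2 fold change of 0.81 (SE 0.27, limma adjusted p = 0.315), and Mdh2, mitochondrial malate dehydrogenase, with 0.75 (SE 0.29, limma adjusted p = 0.358).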

How the data were processed

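The 4 RNA-seq libraries were grouped by their titles, 2 as WT and 2 as KO. Per the study's methods, paired-end reads from an Illumina HiSeq instrument were filtered and then mapped to mm10, and the aligner, counter and annotation release are not given in the sources used here. The deposited signal values carry the name FPKM. They proved to be gene counts scaled by 1 factor per library (0.937 and 1.09 in WT, 0.934 and 1.11 in KO), because 100% of the deposited values were whole multiples of a single read within 0.01. The authors also deposited group means, log2 fold changes and p-values, of which none were used.

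The main test was limma 3.58.1 (R 4.3.3), fitted with lmFit and eBayes, with a mean-variance trend and no covariate, to log2(normalized count + 1). Genes needed a mean of 1 or more, and p-values were adjusted by Benjamini-Hochberg over all of them. A fold change on this scale understates the change of low genes. Whole reads recovered from the values also went into edgeR 4.0.16 and DESeq2 1.42.0, and were divided by gene length and reads on genes to give FPKM. Gene lengths of members ran from 360 to 8086 bases, and a long annotated length lowers FPKM. In GENCODE M21, 87 members had the same start and end as in the table, and 32 shared exonic bases with another gene. Summaries were made in Python 3.11.15 with pandas 2.3.3 and scipy 1.17.1, and plots in matplotlib 3.10.9. The limma, edgeR and DESeq2 fits were run on simulated counts with planted fold changes larger than most described here. The only condition set was that the median estimate lay near the planted change. Detection of small changes was not checked.

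The study's text gives 3 biological repeats each of WT and KO cells for RNA-seq, whereas 2 libraries per genotype were available and analysed here. The labels do not tie these to separate cultures, so p-values measure only the spread between these libraries, and floors cover counting error only. The members and the role, pathway and marker lists were chosen with earlier results of these data known. Genes named are all of complex II, the 3 of highest mean FPKM in the other complexes, the isoforms of restricted expression with their partners, the 4 largest rises and falls among members with a mean of at least 10 normalized counts, calls after adjustment, Tet1, and the 2 largest changes of each pathway list with Ppargc1a. Atp5g2, Atp5g3, Atp5s, Ndufaf2, mt-Co3, mt-Nd3 and the marker genes given with values were added after their values were seen. Alternatives were a pseudocount of 0.1, a minimum mean of 10 or none, TMM, equal sums, quantile normalization, no trend, the replicate number as a block, each library left out, edgeR, DESeq2 and FPKM.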

Additional observations from a re-analysis of the deposited data

How the results depend on the processing

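Across the 12 kinds of alternative, the median log2 fold change of the members and of complexes I, III, IV and V stayed above 0. The number of members higher in the libraries labelled KO at an unadjusted p under 0.05, 4 in limma, was 2 with quantile normalization, 0 without the variance trend, 2 in DESeq2, and between 0 and 7 when 1 library was left out, with 0 without WT 1, 2 without WT 2 and 7 without KO 2. The number that were lower, 2, ranged from 1 (without WT 2) to 4 (without KO 1). The number called after adjustment was 0 except in DESeq2, with 2. For a lone library left in a group, its spread was taken from the other group. Quantile normalization moved the median of all genes from -0.07 to 0.06 and the distance of the member median from it from 0.47 to 0.26. The median of complex III, 0.47, ranged from 0.073 to 0.90 when 1 library was left out, and that of complex II, 0.13, from -0.06 to 0.35. The log2 fold change of some genes turned sign. With quantile normalization that of Sdhc was -0.056. When 1 library was left out, Sdha ranged from -0.71 to 0.32, Sdhc from -0.25 to 0.38, Uqcr11 from -0.10 to 0.90, Cox8a from -0.036 to 0.63, Atp5a1 from -0.094 to 0.44, Cox6a2 from -0.75 to 3.69, Ndufv3 from -1.23 to 0.11 and Tet1 from -0.051 to 1.36. The turn came without KO 1 for Sdhc, Uqcr11, Cox8a and Atp5a1, also without WT 1 for Sdhc, and without KO 2 for the others. Apart from the fewer libraries, the causes were not tested. Cox4i2 and Cox6b2 stayed below 0 in every alternative, with adjusted p between 0.00198 and 0.930.

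With a replicate block, 3 members were higher and 2 lower at an unadjusted p under 0.05 and 0 passed adjustment. The deviations of libraries with the same number correlated at -0.08, so the numbers are not shown to pair the libraries. With 2 libraries per genotype, small differences were not detectable.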
